A study of Mus musculus with 2 samples.

Results

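Mir126a, Mir221 and Mir222 are microRNA genes studied in blood vessels, and their levels in embryonic lung are described here. They were taken by name from the count tables, where each has a single row, so all 3 of 3 genes were found among 1973 microRNA genes. The study sequenced the small RNA (under 30 bases) of whole lung from mouse embryos of strain B6NCrl at embryonic day 16.5, described as healthy, with no treatment and no altered allele named. It holds 1 group of 2 biological replicates, and each is a pool of male and female embryos. The pool of replicate 2 held lungs of 41 embryos, and the number behind replicate 1 is not given in the sources used here. With 1 group, no condition could be compared, so the comparisons are between genes and between the libraries.

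MicroRNAs are short RNAs that pair with messenger RNAs through their seed, bases 2 to 8 from the 5′ end, and lower the output of those messages. The microRNA of Mir126a is a hallmark of endothelial cells. It is made from the transcript of Egfl7, a gene for a secreted protein of endothelium, and lowers Spred1 and Pik3r2, which dampen the signalling of vascular growth factors. The microRNAs of Mir221 and Mir222 are made from a common primary transcript and lower Kit, the stem cell factor receptor, and Cdkn1b, a brake on the cell cycle, in vessel wall cells and many other cells. In the lung a dense capillary bed forms around the branching airways during the second part of gestation.

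The sequences show how the genes are related, and they are given 5′ to 3′ from RefSeq (GRCm38.p6) with the seed in capitals. All 3 genes had a hairpin in that table, at the coordinates of the annotation used here. The mature forms listed for the 3 genes, and those of the gene on the other strand at the Mir126a locus, are the following.
mmu-miR-126a-3p: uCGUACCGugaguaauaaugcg
mmu-miR-221-3p: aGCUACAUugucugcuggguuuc
mmu-miR-222-3p: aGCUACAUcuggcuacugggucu
mmu-miR-221-5p: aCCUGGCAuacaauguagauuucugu
mmu-miR-126b-5p: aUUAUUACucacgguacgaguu
mmu-miR-126b-3p: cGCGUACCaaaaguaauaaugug

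The 3p forms of Mir221 and Mir222 began with the same 8 bases and so share the seed GCUACAU. Over their 23 bases, 11 positions were identical without gaps. Among 1738 mature sequences in the table, this seed was held by 3, the third being mmu-miR-1928 of the gene Mir1928. Its sequence is shown for the comparison of counts below.
mmu-miR-1928: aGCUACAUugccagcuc
The seed of mmu-miR-126a-3p, CGUACCG, was held by no other mature sequence of the table. By these listed forms, Mir126a has a seed of its own, and the 3p forms of Mir221 and Mir222 form a group with Mir1928. For Mir126a and Mir222 only the 3p form is listed, so any other mature form of these genes is not covered.

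The hairpins, from which the mature forms are cut, are shown with the listed mature forms in capitals.
Mir126a: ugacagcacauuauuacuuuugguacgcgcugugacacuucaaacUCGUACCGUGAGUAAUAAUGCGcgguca
Mir221: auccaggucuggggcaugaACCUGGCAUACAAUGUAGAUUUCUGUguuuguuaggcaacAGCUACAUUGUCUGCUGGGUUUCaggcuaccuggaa
Mir222: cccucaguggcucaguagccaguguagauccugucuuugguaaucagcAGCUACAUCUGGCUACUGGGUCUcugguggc
The longest run that each hairpin shares with any of the other 1004 hairpins was 11 bases for Mir126a, 12 for Mir221 and 12 for Mir222. Mir221 and Mir222 share 9 bases with each other. These runs are shorter than a mature microRNA, so none of the 3 genes has a copy in the table from which its full-length reads could come. The tables count reads per gene, so the arms of a hairpin cannot be told apart in the values that follow.

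In mm10 coordinates (GENCODE M21), Mir126a (ENSMUSG00000065540.1) is a plus-strand gene of chromosome 2, from 26591357 to 26591429. It is within Egfl7 (26580014 to 26593120, plus strand), where 7 protein-coding transcripts span it in an intron and 1 transcript, a retained-intron form, has its exon 4 over it. A transcript of Gm20532 also spans it on the same strand. Mir221 (ENSMUSG00000065422.1) is a minus-strand gene of chromosome X, from 19146294 to 19146388. Mir222 (ENSMUSG00000065471.1) lies at 19146893 to 19146971 on the same strand, 504 bases from Mir221. No other annotated gene overlaps Mir221 or Mir222.

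The libraries held 6376715 and 4123748 counts over microRNA genes, which is 49.6% and 48.8% of all reads the tables account for. Reads matching several loci, 30.0% and 31.8% of all reads, are not in these counts, so microRNAs made from several loci can be undercounted. Detected here means 10 or more counts in both libraries, which held for 347 genes. Levels are given as CPM, the counts scaled so that all microRNA genes of a library sum to 1000000, and a count of 0 allows up to 0.470 CPM in replicate 1 and 0.727 CPM in replicate 2. Of 13 epithelial microRNAs listed for the check of the tissue, 13 were detected, and so were 7 of 7 of smooth muscle and mesenchyme. The tables hold microRNA genes only, so the endothelial origin of Mir126a was not measured. In whole tissue, fewer cells of a type and less RNA per cell cannot be told apart.

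By counts of reads matching a single locus, Mir126a was among the most abundant microRNAs of the lung, and Mir221 and Mir222 were at moderate levels. Mir126a had 556543 counts in replicate 1 and 326271 in replicate 2. This is 87277 CPM (95% Clopper-Pearson interval 87058 to 87497) and 79120 CPM (78860 to 79381), or 83199 CPM ± 5768 (SD, n = 2). It was the first gene in rank in replicate 1 and the second in replicate 2, and it held 8.32% ± 0.577 of all microRNA gene counts.

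Mir221 had 1825 and 1249 counts, which is 286 CPM (273 to 300) in replicate 1 and 303 CPM (286 to 320) in replicate 2. Its mean was 295 CPM ± 11.8 (SD, n = 2), at rank 147 of all genes. Mir222 had 1022 and 624 counts, or 160 CPM (151 to 170) and 151 CPM (140 to 164). Its mean was 156 CPM ± 6.33 (SD, n = 2), at rank 182. Mir221 lay above Mir222 in both libraries and their values did not overlap. Of the detected genes, 99.4% had a lower mean than Mir126a, 57.6% a lower mean than Mir221 and 47.6% a lower mean than Mir222. Mir1928, which shares their seed, had 0 counts in both libraries.

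**Figure D1:**
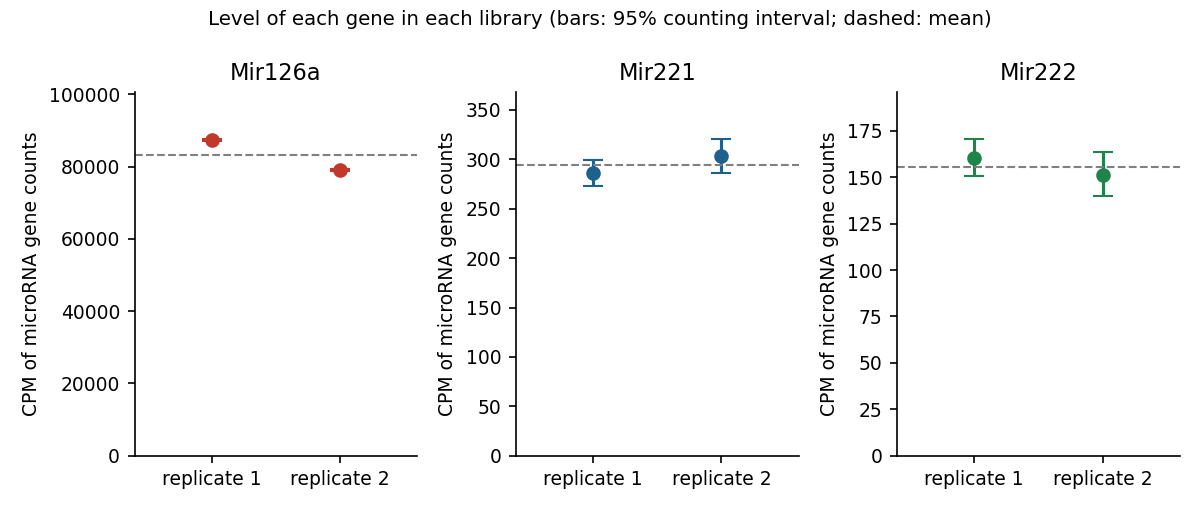
Level of Mir126a, Mir221 and Mir222 in each library, as CPM of microRNA gene counts on axes that start at 0. Points are single libraries, bars are 95% counting intervals and the dashed line is the mean. The intervals of the libraries overlap for Mir221 and Mir222 and do not for Mir126a, which was at 87277 and 79120 CPM.

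Counts of small RNA reads are not scaled by gene length, since a read spans the whole mature microRNA. Mir126a was 305-fold above Mir221 in replicate 1 and 261-fold above it in replicate 2, by ratio of counts. Against Mir222 it was 545-fold and 523-fold higher. Per base of the annotated hairpin (73, 95 and 79 bases), a scale added after seeing the data, the mean levels were 1140 CPM per base ± 79.0 for Mir126a, 3.10 ± 0.124 for Mir221 and 1.97 ± 0.0801 for Mir222 (SD, n = 2). The order of the 3 genes was the same on both scales and in both libraries.

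**Figure D2:**
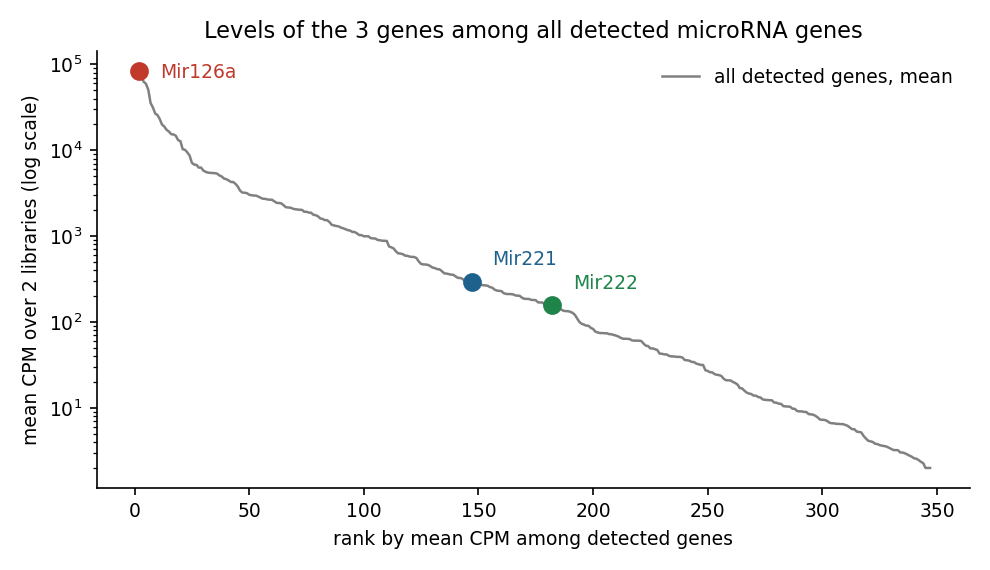
Mean CPM over the 2 libraries (log axis) of the 347 detected genes against their rank among them, with the 3 genes as coloured points. Mir126a stands at the top end at 83199 CPM, and Mir221 (295 CPM) and Mir222 (156 CPM) lie near the middle of the ranks.

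The neighbours of each gene in the order of levels show how firmly its place is set. Mir322, a microRNA of the miR-15/16 seed family, was above Mir126a by the mean, at 83213 and 86140 CPM. The ranges of Mir322 and Mir126a overlapped and their order turned between the libraries. Below Mir126a came Mir143 of smooth muscle (70224 and 72270 CPM), Mirlet7g (64350 and 61051) and Mirlet7i (64202 and 54563). Both libraries of these 3 genes lay below both values of Mir126a. By these counts, the place of Mir126a in the first 2 ranks was therefore the same in both libraries.

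Around Mir221 the levels were close together. The 3 genes next above it by the mean were Mir3071 (301 CPM ± 33.7), Mir224 (301 ± 34.1) and Mir665 (296 ± 18.1), and the 3 next below were Mir669o (293 ± 4.01), Mir20b (292 ± 14.6) and Mir450b (287 ± 21.1; SD, n = 2). The ranges of all 6 overlapped that of Mir221, so its exact rank is not resolved. Around Mir222 the genes next above were Mir148b (158 ± 2.22), Mirlet7c-1 (158 ± 6.67) and Mir874 (156 ± 10.2), and those next below were Mir30b (155 ± 13.3), Mir574 (144 ± 24.7) and Mir500 (143 ± 24.8). All 6 overlapped Mir222 as well.

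The difference between the libraries was small for all 3 genes, and it exceeded counting error for Mir126a alone. Mir126a was 1.10-fold higher in replicate 1 (95% interval 1.10 to 1.11, log2 of replicate 1 over replicate 2 of 0.14). Its p-value in the exact binomial test was too small to be held as a number other than 0. Mir221 was 1.06-fold higher in replicate 2 (0.984 to 1.14), with an adjusted p of 0.204 (exact binomial test, Benjamini-Hochberg over 347 genes). Mir222 was 1.06-fold higher in replicate 1 (0.958 to 1.17), with an adjusted p of 0.383 in the same exact test. The test weighs the reads of these 2 libraries against counting error and does not compare conditions.

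A call in this test was common among all genes. Of the 347 detected genes, 163 were called, 47.0%, against 1 of the 3 genes here. A call depends on the number of counts, which was far larger for Mir126a than for Mir221 and Mir222. As replicate 1 over replicate 2, the interval of Mir222 (0.958 to 1.17) includes the 1.10-fold of Mir126a. The interval of Mir221 (0.879 to 1.02) does not. Those higher in replicate 1 made up 16.4% and those higher in replicate 2 made up 30.5%. With the scaling of edgeR (TMM) or of DESeq2 the split was 78 against 75 in place of 57 against 106, because the median of all detected genes moved from -0.05 to 0 on the log2 scale. On the TMM scale Mir126a was at 0.19, Mir221 at -0.03 and Mir222 at 0.13 (log2 of replicate 1 over replicate 2).

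Set against other genes, the differences of the 3 genes were not among the largest. Among 194 detected genes with a mean of at least 100 CPM, 78 (40.2%) had a larger difference than Mir126a, irrespective of direction. For Mir221 the number was 130 (67.0%) and for Mir222 129 (66.5%). These shares are by CPM, and they were not computed with TMM scaling, which places Mir126a at a log2 ratio of 0.19. The coefficient of variation over the 2 libraries was 6.93% for Mir126a and at most 4.06% for Mir221 and Mir222. The genes with the log2 ratio closest to that of Mir126a were Mir351 (0.14), Mir425 (0.14) and Mir186 (0.14). Those closest to Mir221 were Mir139 (-0.08), Mir669l (-0.08) and Mir223 (-0.09), and those closest to Mir222 were Mirlet7c-1 (0.09), Mir411 (0.08) and Mir101b (0.08). This likeness rests on 2 libraries and a single ratio per gene.

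**Figure D3:**
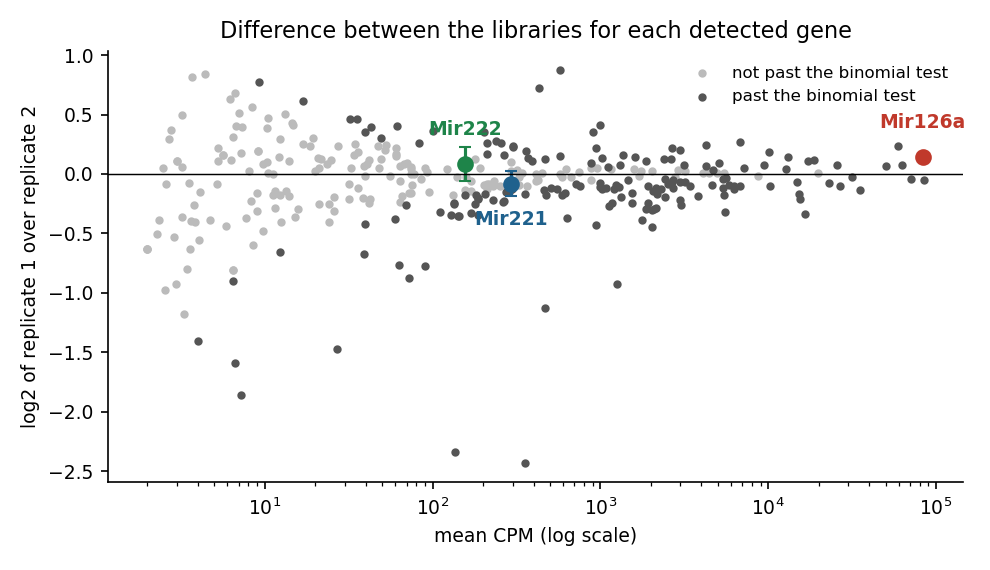
Log2 of replicate 1 over replicate 2 against mean CPM (log axis) for the 347 detected genes. Dark points passed the binomial test and light ones did not, and bars on the 3 coloured genes are 95% counting intervals. Mir126a (0.14) lies above 0 with an interval smaller than its point, and the intervals of Mir221 and Mir222 include 0.

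Marker lists of other cell types are given beside the difference of Mir126a. Of 8 blood cell microRNAs, 6 were in the tables and detected, none at 0, and they summed to 2934 CPM in replicate 1 and 2698 CPM in replicate 2. In that list 2 were higher in replicate 1, 2 were higher in replicate 2 and 2 were not called, where 16.4% and 30.5% of all detected genes were higher in replicate 1 and in replicate 2. Mir451a (747 and 408 CPM) and Mir144 (278 and 232 CPM) of red cells were higher in replicate 1, as Mir126a was. The highest members of the list, Mir142b (1149 and 1258 CPM) and Mir223 of myeloid cells (697 and 740 CPM), were higher in replicate 2. For Mir142b, 7328 of 7330 counts in replicate 1 and all 5187 in replicate 2 lay on the strand opposite to its annotation. Its value is therefore not a level of Mir142b itself. Mir486 of red cells (21.8 and 19.9 CPM) and Mir150 of lymphocytes (39.5 and 40.0 CPM) were not called. For Mir486, 11 of 139 counts in replicate 1 and 7 of 82 in replicate 2 lay on the opposite strand. Mir486b of the same list has no row, and reads matching several loci are not counted. The full level of Mir486 is therefore not known here. With TMM scaling, and also with the counts of the sense strand alone, 2 members were higher in replicate 1 and 1 in replicate 2.

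Of the 13 epithelial microRNAs, 1 was higher in replicate 1, 9 were higher in replicate 2 and 3 were not called, beside the same 16.4% and 30.5% of all detected genes. With TMM scaling the numbers were 2 and 7, where all detected genes split 78 against 75. The highest were Mir449a of multiciliated cells (14580 and 18445 CPM), Mir429 (14438 and 15090 CPM) and Mir200c (9926 and 10632 CPM), and Mir34b, at 30.3 and 48.3 CPM, was the 1 member called at 1.5-fold or more. That list summed to 5.36% of counts in replicate 1 and 6.01% in replicate 2. The list of smooth muscle and mesenchyme, led by Mir143, Mir140 (4751 and 4633 CPM) and Mir214 (4455 and 4760 CPM), summed to 8.14% and 8.37%, with 2 members higher in replicate 1 and 3 in replicate 2. With TMM scaling, 3 members of the list of smooth muscle and mesenchyme were higher in replicate 1 and 2 in replicate 2. The part of cell makeup in the difference of Mir126a was not tested.

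Within a library, the ratio of genes does not depend on scaling. Mir221 had 1.79 counts for each count of Mir222 in replicate 1 (95% interval 1.65 to 1.93) and 2.00 in replicate 2 (1.82 to 2.21), a mean of 1.89 ± 0.153 (SD, n = 2). The intervals overlapped, and Fisher's exact test of the counts gave p = 0.0703, unchanged by Benjamini-Hochberg adjustment over 2 ratios (0.0703). Mir126a had 195 counts for each count of Mir221 and Mir222 combined in replicate 1 (188 to 203) and 174 in replicate 2 (166 to 182). That ratio was 1.12-fold higher in replicate 1 (Fisher's exact test, adjusted p = 0.000245). Combined, Mir221 and Mir222 were at 446 CPM in replicate 1 and 454 CPM in replicate 2.

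By these counts, Mir221 and Mir222 were closer to each other in level than most neighbouring microRNA genes. Among 109 pairs of detected neighbours on one strand within 10 kb, the median pair differed 8.89-fold in mean CPM. Mir221 and Mir222 differed 1.89-fold, and 16 pairs (14.7%) differed less. The pair's log2 ratios between the libraries, -0.08 and 0.08, lay 0.16 apart. The median distance over all pairs was 0.17, and 51 pairs lay closer. Reads matching several loci are not counted, which lowers genes that share a mature form with another locus. The part of this in the distances between pairs was not tested. Genes are not independent replicates, and these ranks are a description.

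**Figure D4:**
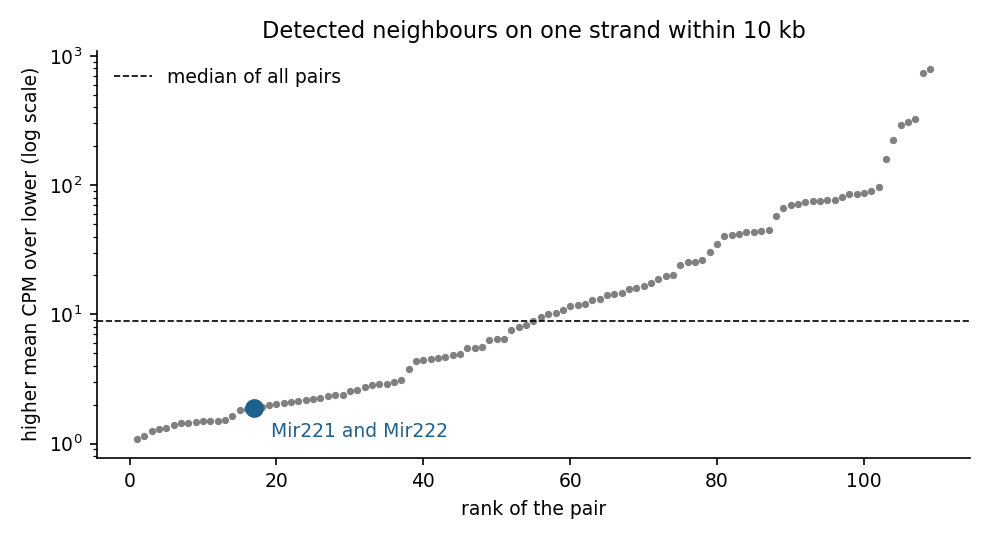
The higher mean CPM divided by the lower (log axis) for 109 pairs of detected neighbouring genes, ordered from the most alike pair to the least. The coloured point is the pair of Mir221 and Mir222 at 1.89-fold, and the dashed line is the median of 8.89-fold.

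At the Egfl7 locus the counts by strand were examined, since a microRNA gene is annotated on each strand. Mir126b (58 bases, 26591363 to 26591420, minus strand, ENSMUSG00000105799.1) lies within the bounds of Mir126a, and its form mmu-miR-126b-5p overlaps mmu-miR-126a-3p over 19 bases on the opposite strand. It has no row in the tables, which refer to the older GENCODE release M4. On the strand of Mir126a there were 556520 counts in replicate 1 and 326259 in replicate 2. On the opposite strand there were 23 and 12 counts under the row of Mir126a.

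Nearly all reads of the locus thus lay on the strand of Egfl7. The opposite-strand share was 0.00413% in replicate 1 (95% interval 0.00262 to 0.0062) and 0.00368% in replicate 2 (0.0019 to 0.00642). As levels these are 3.61 CPM and 2.91 CPM, above the limits that a count of 0 allows, and they bound what could be counted for Mir126b in these rows. Among the 30 genes with the highest mean CPM, 19 had 0 opposite-strand counts and 1, Mirlet7b, had a larger share than Mir126a (0.0577%). Over all genes the opposite strand held 2.64% and 2.71% of counts, and 297 of 347 detected genes had none. In 10 detected genes, Mir142b among them, most counts lay on the strand opposite to the annotation. The share over all genes includes these 10 and is not a background level of each gene. Mir221 and Mir222 had 0 opposite-strand counts in both libraries, which allows a share of up to 0.164% and 0.240% for Mir221 and up to 0.294% and 0.481% for Mir222.

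MicroRNAs studied in vessels were taken from a list of 29 genes, of which 26 were in the tables and all 26 were detected. The list includes Mir126a, Mir221 and Mir222 themselves. Those not in the tables are Mir126b, Mir24-1 and Mir378a. The list summed to 30.9% of microRNA gene counts in replicate 1 and 31.3% in replicate 2, and many of its members are also expressed outside vessels. Mir126a made up 8.73% and 7.91% of microRNA gene counts within these sums. Its highest members were Mir322 (84676 CPM ± 2070), Mir126a and Mir99a (35435 ± 2391; SD, n = 2), the last a microRNA that lowers Mtor. Mir126a held more counts than Mir99a in both libraries. Mir221 and Mir222 were below the median member, which was at 866 CPM, against 180 CPM over all detected genes.

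Mir126a went in the direction opposite to most called members of that list. Of the 26 members, 2 were higher in replicate 1 (Mir126a and Mir130a), 13 were higher in replicate 2 and 11 were not called, by the exact binomial test over all 347 genes. Among all detected genes, 16.4% were higher in replicate 1 and 30.5% in replicate 2. Mir130a, which lowers the antiangiogenic homeobox genes Meox2 and Hoxa5, was at 26399 and 25081 CPM. The median log2 ratio of the list was -0.09, against -0.05 over all detected genes. With TMM scaling 3 members were higher in replicate 1 and 9 in replicate 2, where all detected genes split 78 against 75, and the median was -0.03.

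Mir10b of the Hoxd cluster, which promotes the growth of new vessels, was the 1 member called at 1.5-fold or more. It was at 868 CPM in replicate 1 and 1648 CPM in replicate 2, 1.90-fold higher in replicate 2 (1.83 to 1.97). Its paralogue Mir10a, with 22446 and 23649 CPM, was 1.05-fold higher in replicate 2 (1.05 to 1.06). Mir100, of the seed family of Mir99a, was at 2736 and 3190 CPM, and Mir23a and Mir23b, which are enriched in endothelium, were at 15403 ± 1553 and 26797 ± 1333 CPM (SD, n = 2). All 4 of Mir10a, Mir100, Mir23a and Mir23b were among the members higher in replicate 2. Mir155, a microRNA of activated leukocytes and endothelium, was low at 63.2 and 75.7 CPM. Mir218-1 and Mir218-2, which lie in the Slit genes of vessel and axon guidance, had the lowest counted levels at 14.5 ± 3.01 and 18.7 ± 2.13 CPM. Reads that match both loci would not be in these counts, so the full level of Mir218-1 and Mir218-2 is not known here.

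**Figure D5:**
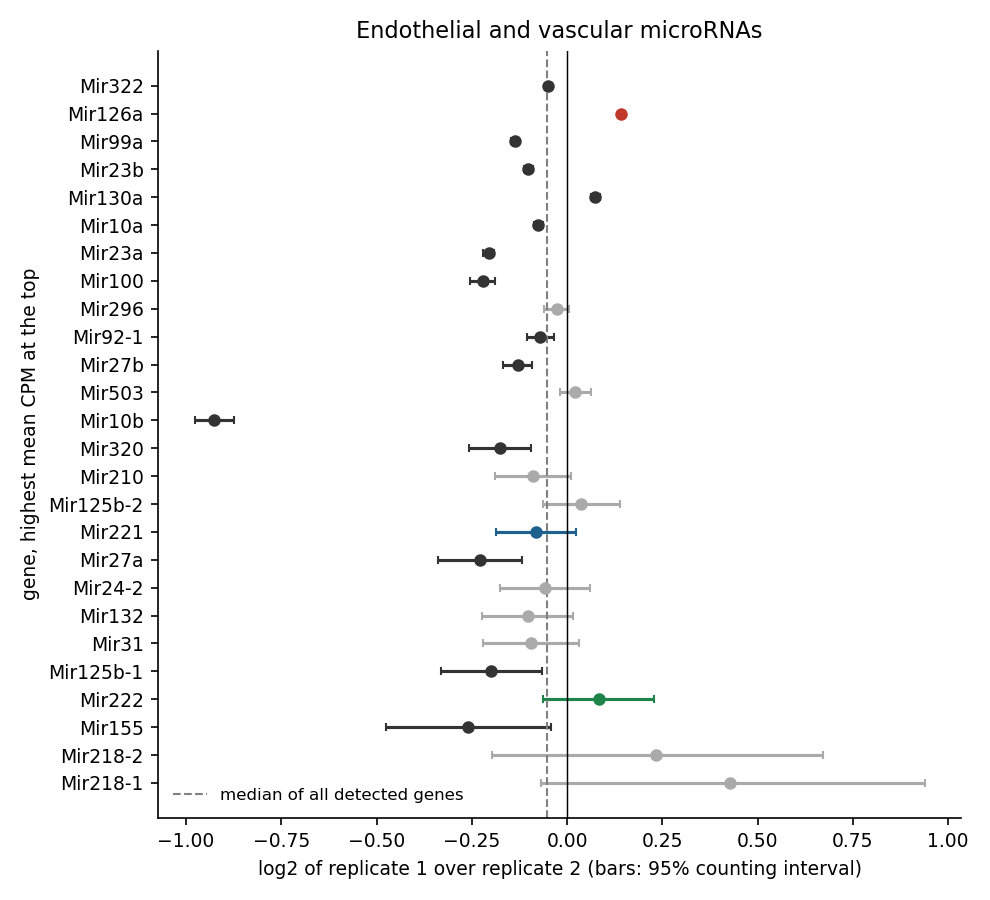
Log2 of replicate 1 over replicate 2 with 95% counting intervals for the 26 detected microRNAs of the endothelial and vascular list, ordered by mean CPM with the highest at the top. Black points passed the binomial test, grey ones did not, and Mir126a, Mir221 and Mir222 are coloured. Mir126a lies to the right of 0 and the dashed line is the median of all detected genes (-0.05).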

How the data were processed

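Small RNA of embryonic lung was sequenced in 2 libraries of 1 group. The authors deposited, per library, counts of reads per microRNA gene without normalization, per the file headers on assembly mm10 with GENCODE M4 and derived from an alignment. The sources used here do not name the aligner or the counter. Column 2 ignores strand and equals the sum of columns 3 and 4 in all 1973 genes. The 4 summary lines (50.4% and 51.2% of reads, with 30.0% and 31.8% matching several loci) stayed out of totals and tests.

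CPM was computed from column 2 over gene rows. Names and coordinates came from GENCODE M21, in which 1894 of the 1973 identifiers were found once their version was removed. One listed gene was matched by its other name, Mir92-1. Genes with at least 10 counts in each library were compared by a two-sided exact binomial test against the library totals, adjusted by Benjamini-Hochberg at 0.05. Intervals are Clopper-Pearson at 95%, and a count of 0 allows 3 counts. Both cover counting error only, since reads are not independent molecules. The comparison was tested on simulated counts that held counting error only, so that test does not cover variation between replicates.

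Alternatives used edgeR 4.0.16 (TMM), DESeq2 1.42.0 (size factors over detected genes) and R 4.3.3. The rest ran in Python 3.11.15 with scipy 1.17.1 and pandas 2.3.3. The members and lists were chosen with earlier results of these data known. Named beside the 3 genes are the 3 genes next above and below each in level, the 3 closest in ratio at 100 CPM or more, and from each list the 3 highest and those called at 1.5-fold. Other list members were named after their values were seen.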

Additional observations from a re-analysis of the deposited data

How the results depend on the processing

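The differences of Mir126a, Mir221 and Mir222 between the libraries kept their direction and their side of the threshold under all alternatives run for them, which changed the scaling, the strand column, the count minimum, the depth of the deeper library and the total. For Mir126a the fold of replicate 1 over replicate 2 ranged from 1.10 to 1.14 over 8 alternatives. For Mir221 the adjusted p (exact binomial test) ranged from 0.170 to 0.681, and for Mir222 from 0.130 to 0.589, over 9 alternatives each. Scaled by all reads of the tables, the mean levels were 40924 for Mir126a, 145 for Mir221 and 76.6 for Mir222, by construction lower than CPM of gene counts, since the total is larger. With Mir322, the most counted gene, left out of the total they were 90889, 322 and 170 CPM. Per base of the hairpin, added after seeing the data, the ratio of Mir221 to Mir222 was 1.57 and that of Mir126a to both combined was 225. With each replicate left out in turn, the levels ranged from 79120 to 87277 CPM for Mir126a, 286 to 303 for Mir221 and 151 to 160 for Mir222, and the ratios from 1.79 to 2.00 and 174 to 195. A difference between the libraries cannot be computed without either of them. No paired analysis was possible because there is a single group. At these depths and by CPM, the intervals of Mir221 and Mir222 do not exclude differences of up to 1.14-fold and 1.17-fold between the libraries. With TMM scaling the upper limit of Mir222 was 1.21-fold. With the deeper library thinned, the lower limit of Mir221, as replicate 1 over replicate 2, was 0.869 in place of 0.879.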
